A study of Mus musculus with 6 samples.

Results

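The genes described here encode molecular motors, the proteins that turn ATP into movement along the cytoskeleton. They were chosen by their symbols and their depth: protein-coding genes of the GENCODE M21 annotation named Kif plus a digit (kinesins), Dync (cytoplasmic dynein chains), Dnah (axonemal dynein heavy chains) or Myo plus a digit (unconventional myosins), with at least 60 counts summed over 6 libraries. Of 86 such genes among the 54532 in the files, 62 met the minimum, and all 62 were among the 14008 genes deep enough to be tested. The summed counts that chose them ran from 78 for Myo1a to 44397 for Dync1h1. Just inside the minimum were Myo1a (78), Dync1i1 (101) and Dnah5 (103), and just outside it Dnah7a (58), Kif9 (53) and Myo1h (52). One member, Kif1bp, encodes a kinesin-binding protein and not a motor.

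Total RNA was sequenced from mouse embryo heads at embryonic day 8.5, in 3 pools from Sf3b4 wild-type embryos and 3 pools from embryos that lacked Sf3b4 in neural crest cells, with 3 heads per pool. The sample titles speak of homozygous null embryos, but the design text describes deletion in neural crest only, and that description is followed. No source used here gives the Cre line, the strain or the alleles carried by the controls. SF3B4 is a subunit of the U2 particle of the spliceosome, and neural crest cells are the migratory cells that build much of the face. They are a part of the head, so a change in bulk RNA mixes cell numbers and RNA per cell: fewer cells of a type and less RNA per cell cannot be told apart. The comparison asked which transcripts differ between the head genotypes at a stage before malformation, when the heads still looked normal.

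Kinesins and dyneins walk along microtubules, most kinesins toward the plus end and dynein toward the minus end, while myosins walk along actin. Some kinesins build and pull apart the mitotic spindle, others carry vesicles and organelles, and kinesin-2 with dynein-2 moves cargo along the axis of the cilium. Axonemal dyneins bend motile cilia, which are rare in the early head. In the embryonic head these motors serve the dividing neural tube, the ciliary signalling that patterns it and the protrusions of migrating crest cells.

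The pools held 6930827 to 12251910 counts. Values are CPM, read counts brought to a common library size with edgeR's TMM factors, and fold changes are log2 of mutant against wild type. Sf3b4 itself ranged from 63.9 to 77.7 CPM in wild type and from 56.1 to 64.2 CPM in the mutants, with overlap (log2 fold change -0.24, SE 0.0918, edgeR adjusted p = 0.128); a count over the whole gene cannot show a loss of some exons. Wild-type replicate 1 and mutant replicate 3 had a single read (1 each) from 4 genes of the Y chromosome, and the remaining pools 344 to 664, so sex differed among pools. Summed neural crest markers (6 genes, 4 of them lower) ran from 307 to 341 CPM in the wild-type and from 214 to 256 CPM in the mutant pools. Surface ectoderm markers (6 genes, 1 higher) ran from 401 to 442 and from 494 to 552 CPM, and endothelial markers (5 genes, 1 higher) from 182 to 201 and from 218 to 231 CPM. Head mesoderm markers (5 genes, 2 higher) ran from 114 to 134 and from 130 to 138 CPM. The sums of 6 neural tube markers, 1 of them lower (374 to 407 against 380 to 411 CPM), and of 6 heart markers (29.1 to 89.9 against 42.9 to 51.2 CPM) overlapped between genotypes. The part of these marker differences in the motor results was not tested. Trunk markers summed to 9.61 CPM at most, with Hoxb9 at 0 in every pool.

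Motor transcripts that changed went down. Of the 62 members 12 fell in the mutant pools and none rose (19.4%; edgeR quasi-likelihood test, Benjamini-Hochberg adjusted p under 0.05 over all genes), where 3.88% of all tested genes fell and 2.65% rose. In 22 members all 3 mutant pools lay below all 3 wild-type pools and in none did they lie above, against 14.4% and 13.8% of all tested genes. The median log2 fold change was -0.14 over the members and 0.00 over all tested genes, and 50 of 62 members were below 0. At an unadjusted p under 0.05, 20 members were lower and none higher, and none was higher by DESeq2 or limma-voom, which called 11 lower each. The 12 falls were moderate, from -0.28 to -1.04. Together the 12 genes summed to 1979, 2014 and 1915 CPM in the wild-type pools and to 1433, 1583 and 1405 CPM in the mutant pools. The gap between these sums follows from choosing the 12 as lower in the same pools. Dync1h1 alone held 870 of the mean 1969 CPM in wild type and 648 of 1474 CPM in the mutants. The count depended on single pools: leaving out mutant replicate 1, 2 or 3 gave 4, 7 and 8, and leaving out wild-type replicate 1, 2 or 3 gave 16, 8 and 16. Among the 4 pools with reads from the Y chromosome (Y-positive pools) alone it was 8, 7 of them among the 12. Calls also depend on depth, and the members' median of 2795.5 summed counts was above the 1390 of all tested genes.

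**Figure D1:**
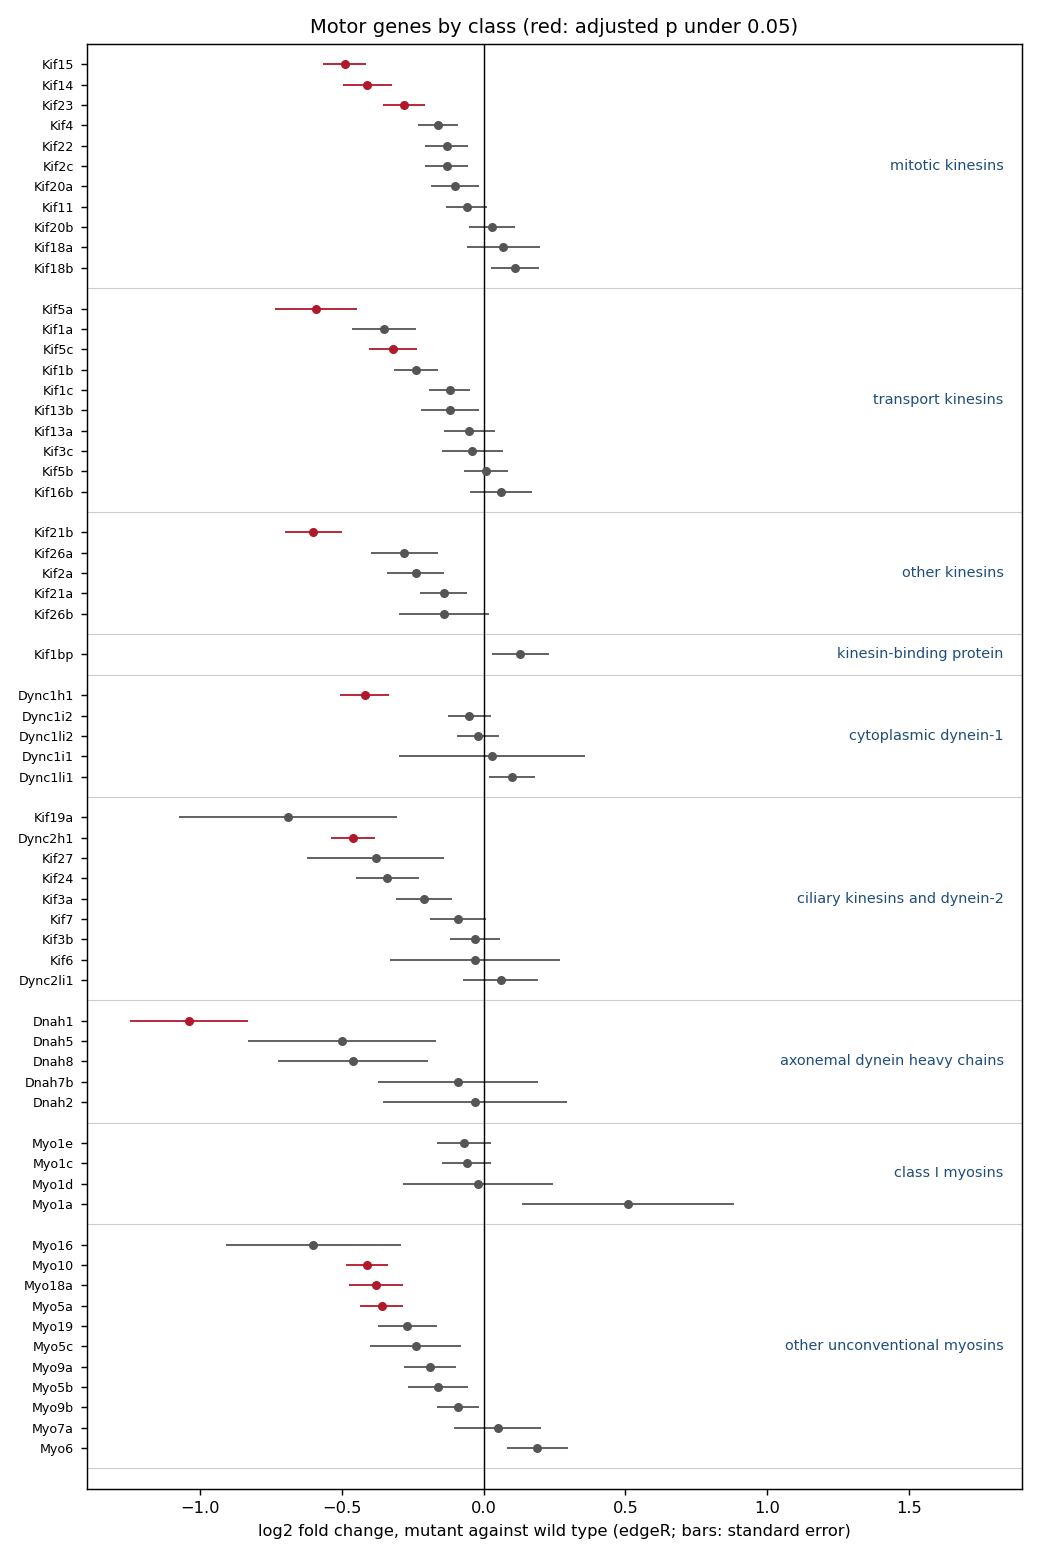
Log2 fold change (x axis, mutant against wild type) of 61 of the 62 members (y axis, grouped by class), with bars for the standard error over 3 pools a group. The 12 genes with an adjusted p under 0.05, in red, all lie left of 0, from -0.28 (Kif23) to -1.04 (Dnah1).

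The kinesins of mitosis are described first, and the promoter stretches below are shown because these genes share a sequence. The cell cycle homology element, TTTGAA in the form searched here, is known from genes whose transcription peaks in mitosis. In RefSeq promoter windows (250 bases before to 50 after the annotated start, GRCm38.p6; 50 of the 62 members had an entry), searched on both strands, 9 of 10 mitotic kinesins held TTTGAA, against 17.9% of 32851 windows in the table and 25.4% of the 59 windows of motor genes. Its first base lay within 20 bases of the start in 7 of the 9. CCAAT, a shorter motif that often accompanies it (matches of the 2 can share an end base), stood in 6 of the 10 and in 37.4% of all windows. Capitals mark TTTGAA (the match nearest the start) or, where it lies on the other strand, TTCAAA; all are written along the gene's own strand.
Kif15 (chr9:122951050-122951079, plus strand): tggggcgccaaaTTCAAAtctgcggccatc
Kif14 (chr1:136467608-136467637, plus strand): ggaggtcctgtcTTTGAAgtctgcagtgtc
Kif23 (chr9:61946788-61946809, minus strand): ctgattggcctgTTTGAAatgc
Kif11 (chr19:37376351-37376380, plus strand): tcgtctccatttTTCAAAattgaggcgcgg
Kif22 (chr7:127042420-127042449, minus strand): gggccccggtaaTTCAAAagagagaagcgg
Kif18b (chr11:102925113-102925133, minus strand): cggaccggctagTTTGAAcgc
The first 3 of these genes fell and the other 3 did not pass the test. The motif stood in 3 of 3 mitotic kinesins that fell and in 6 of 7 that did not pass. In Kif14 it lay 228 bases before the RefSeq start, far from the position it holds in the others shown. That RefSeq start lies downstream of the GENCODE start of Kif14 at 136466343, so the bases shown are inside the GENCODE gene.

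Of 11 mitotic kinesins 3 fell (27.3%, against 3.88% of all tested genes), none rose and 8 did not pass. The class median was -0.13. Kif15 (ENSMUSG00000036768, mm10 chromosome 9, 122951046 to 123018733, plus strand) encodes kinesin-12, which helps hold the spindle poles apart. It held 190, 207 and 218 CPM in the wild-type pools, against 150, 144 and 144 CPM in the mutant pools. The lowest wild-type pool stood well above the highest mutant pool, and the change was -0.49 (SE 0.0748, n = 3 pools each, edgeR adjusted p = 0.00125). This call held in each alternative run, including each pool left out.

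Kif11 encodes kinesin-5, the main motor that drives the poles apart and a partner of kinesin-12 in that task. It measured 255, 269 and 287 CPM in wild type and 262, 257 and 260 CPM in the mutants. These ranges overlapped (-0.06, SE 0.0721, edgeR adjusted p = 0.673). Counted against each other within a pool, where library scaling cancels, there were 0.743, 0.769 and 0.760 Kif15 reads per Kif11 read in the wild-type pools and 0.573, 0.562 and 0.554 in the mutant pools. The ratio of reads on the 2 genes thus differed between genotypes without overlap. This pair was chosen after its values were seen, with Kif15 already called lower. The ratio is not corrected for length, and Kif15 has 11020 bases of exon against 7461 for Kif11. With the length and GC correction described further on, the changes were -0.43 for Kif15 and -0.07 for Kif11.

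Kif14 (ENSMUSG00000041498, chromosome 1, 136466343 to 136531511, plus strand) encodes a motor of cytokinesis that works with citron kinase at the midbody. It measured 56.8, 58.1 and 56.3 CPM in wild type and 40.0, 43.6 and 45.6 CPM in the mutants. All mutant pools lay lower, by -0.41 (SE 0.086, edgeR adjusted p = 0.0108), and the call was lost without mutant replicate 1 or 2. Kif23 (ENSMUSG00000032254, chromosome 9, 61915905 to 61946774, minus strand) encodes the motor subunit of centralspindlin, the complex that organises the spindle midzone. Its values were 131, 129 and 134 CPM against 103, 105 and 117 CPM. The change of -0.28 (SE 0.0741, edgeR adjusted p = 0.0349) was the smallest of the 12 that passed, and the call was lost when wild-type replicate 2 or mutant replicate 1 or 2 was left out.

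The other mitotic kinesins had log2 fold changes from -0.16 to 0.11. Kif20a, a cytokinesis motor, had the highest level per kilobase of exon of all 62 members (68.6 CPM per kb in wild type, 64.1 in the mutants) and a log2 fold change of -0.10 (SE 0.0847); 29.3% of its exonic bases overlap those of Cdc23 on the opposite strand, and since the use of strand is not given, reads of the 2 genes may be shared. Kif4, Kif22 and Kif2c, which act on chromosomes or kinetochores, had -0.16, -0.13 and -0.13; Kif4 measured 115, 115 and 119 CPM against 101, 106 and 107 CPM, without overlap (edgeR adjusted p = 0.189). Kif18b (0.11), Kif18a (0.07) and Kif20b (0.03) had positive values. None of these passed the test. Per kilobase, Kif20a (68.6), Kif11 (36.2) and Kif2c (31.4) led the class in wild type, and the 3 genes that fell stood at 18.6 (Kif15), 16.6 (Kif23) and 5.51 CPM per kb (Kif14).

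Partners of these motors in the spindle and in cytokinesis, from a list of 19 genes, all of them tested, showed 3 falls and no rise, with a median of -0.13. The share lower was 15.8%, against 3.88% of all tested genes. All 3 that fell are in the longest of 5 exon length classes, where 10.4% of all tested genes fell. The list as a whole is shorter, with a median of 4934 bases of exon. With the length and GC correction described further on, 5 of the 19 were lower. Cit, the citron kinase gene, went from 108 ± 7.92 to 74.9 ± 1.21 CPM (SD, n = 3 pools each), a change of -0.53 (SE 0.078, edgeR adjusted p = 0.000936). Mki67, the proliferation marker that coats mitotic chromosomes, fell by 0.44 and Numa1, which anchors dynein at spindle poles, by 0.27; the last call was lost with any 1 pool left out except wild-type replicate 3, among the 4 Y-positive pools, with the replicate number as a block and with the length and GC correction. Racgap1, the partner of Kif23 in centralspindlin, had -0.11 (SE 0.078, edgeR adjusted p = 0.418) and Prc1, the midzone crosslinker, -0.13 (SE 0.0709, edgeR adjusted p = 0.3). Of the mitotic kinesins with other names, Cenpe had -0.27 (edgeR adjusted p = 0.0582) and the minus-end motor Kifc1 0.26 (edgeR adjusted p = 0.0793).

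**Figure D2:**
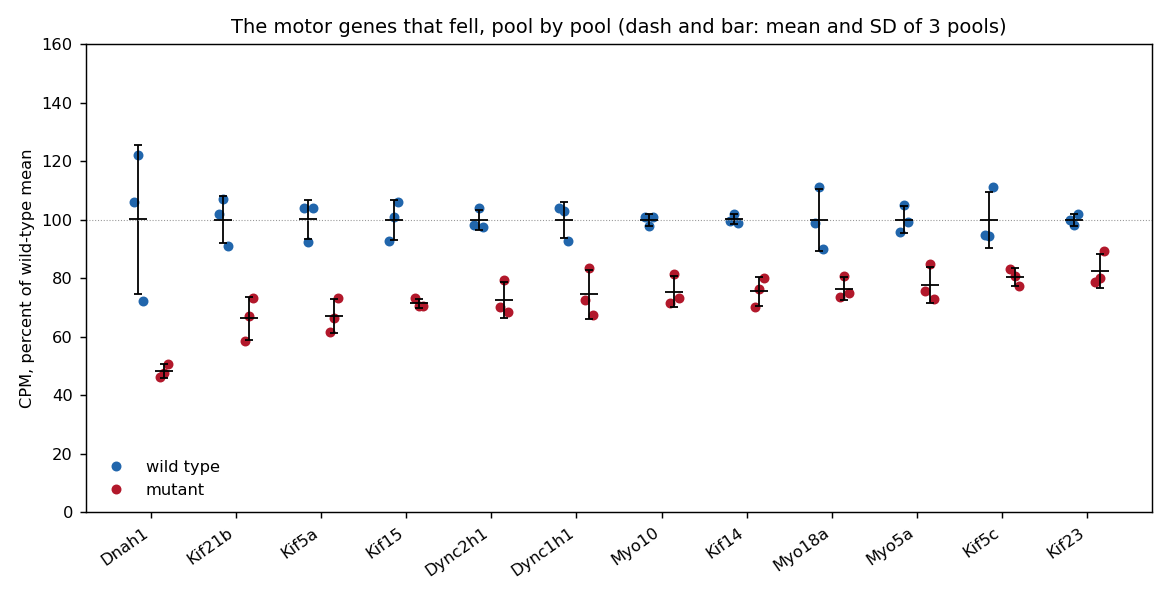
CPM of each pool as a percentage of the gene's wild-type mean (y axis, from 0) for the 12 motor genes that fell (x axis), with dashes and bars for the mean and SD of 3 pools. In each gene all mutant pools lie below all wild-type pools; Dnah1 has the widest wild-type spread.

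Of 10 kinesins of vesicle and organelle transport 2 fell, none rose and 8 did not pass, with a median of -0.12. Kinesin-1 heavy chains come from Kif5b, used in nearly all cells, and from Kif5a and Kif5c, which are enriched in neurons. Kif5a (ENSMUSG00000074657, chromosome 10, 127225696 to 127263348, minus strand) measured 12.9, 11.4 and 12.8 CPM in wild type and 7.63, 8.21 and 9.07 CPM in the mutants. The mutant values were all lower, by -0.59 (SE 0.144, edgeR adjusted p = 0.0229), and the call was lost without mutant replicate 1 or 2, by DESeq2 and among the 4 Y-positive pools. Kif5c (ENSMUSG00000026764, chromosome 2, 49619298 to 49774778, plus strand) measured 77.0, 76.9 and 90.4 CPM against 67.7, 65.8 and 62.8 CPM. Its change was -0.32 (SE 0.0859, edgeR adjusted p = 0.0386); the call was lost with any 1 pool left out except wild-type replicate 1, by limma-voom and among the 4 Y-positive pools.

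Kif5b was the most abundant transport kinesin per kilobase (37.3 CPM per kb in wild type, 37.5 in the mutants). It measured 270, 313 and 310 CPM in wild type and 286, 310 and 302 CPM in the mutants, with overlapping ranges and a change of 0.01 (SE 0.0777, edgeR adjusted p = 0.968). As a share of all reads on the 3 kinesin-1 genes, Kif5b took 75.0%, 78.0% and 75.0% in the wild-type pools and 79.2%, 80.7% and 80.8% in the mutant pools. The groups did not overlap in this share, which was chosen after its values were seen. Postmitotic neuron markers summed to overlapping ranges (4 genes, 89.0 to 110 CPM in wild type and 95.6 to 101 CPM in the mutants), and none of the 3 tested passed. Tubb3, which supplied most of that sum, had a mean of 76.3 CPM in wild type and 65.7 CPM in the mutants (-0.22, SE 0.085, edgeR adjusted p = 0.133). The sum therefore does not describe each marker.

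The other transport kinesins did not pass. Kif1a and Kif1b, carriers of synaptic vesicle precursors and mitochondria, had -0.35 (SE 0.113, edgeR adjusted p = 0.0834) and -0.24 (SE 0.0775, edgeR adjusted p = 0.075), with mutant pools all below wild-type pools in both. Kif1c (-0.12) also had no overlap. Mutant pools lay wholly below wild-type pools in 14.4% of all tested genes. Kif13b, Kif13a, Kif3c and Kif16b, the last an endosome motor, ranged from -0.12 to 0.06; 40.7% of the exonic bases of Kif3c overlap an opposite-strand gene.

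Among 5 kinesins outside these classes Kif21b fell. It encodes a motor that pauses microtubule growth and is abundant in neurons and lymphocytes. Kif21b (ENSMUSG00000041642, chromosome 1, 136131389 to 136177998, plus strand) measured 60.7, 63.6 and 54.2 CPM in wild type and 34.9, 39.9 and 43.6 CPM in the mutants. The gap between the groups exceeded the range within each, with a change of -0.60 (SE 0.1, edgeR adjusted p = 0.00236), and the call held in each alternative run. Its close relative Kif21a, the most abundant of the 5 per kilobase, measured 79.1, 75.4 and 89.1 against 72.5, 76.9 and 72.5 CPM. Those ranges overlapped, and the change was -0.14 (SE 0.083, edgeR adjusted p = 0.334). Kif26a (-0.28), Kif2a (-0.24) and Kif26b (-0.14) did not pass. The kinesin-binding protein gene Kif1bp had 0.13 (SE 0.0989, edgeR adjusted p = 0.456), and 10.1% of its exonic bases overlap an opposite-strand gene.

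Cytoplasmic dynein-1 is the main minus-end motor of the cell, a complex of a heavy chain that holds the motor domain with intermediate, light intermediate and light chains. Dync1h1, the heavy chain gene (ENSMUSG00000018707, chromosome 12, 110601452 to 110666945, plus strand), ranked second of the 62 members per kilobase (55.5 CPM per kb in wild type, 41.4 in the mutants). It measured 903, 899 and 807 CPM in wild type and 631, 727 and 585 CPM in the mutants. Every mutant pool was lower, by -0.42 (SE 0.0858, edgeR adjusted p = 0.00863). The call was lost without mutant replicate 1 or 3, among the 4 Y-positive pools and with the length and GC correction described further on (-0.21, edgeR adjusted p = 0.0553).

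The other 4 dynein-1 genes did not pass. Dync1li1 had 0.10 (SE 0.0821), Dync1i1 0.03 (SE 0.327), Dync1li2 -0.02 (SE 0.0729) and Dync1i2 -0.05 (SE 0.0744). Their summed level was 310 ± 10.7 CPM in wild type and 310 ± 12.9 CPM in the mutants (SD, n = 3 pools each). Reads on Dync1h1 per read on these 4 genes numbered 3.01, 2.92 and 2.51 in the wild-type pools and 2.04, 2.44 and 1.81 in the mutant pools, without overlap. The ratio is not corrected for length, and it too was chosen after the values were seen.

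Of 30 tested light chain, dynactin and adaptor genes that serve dynein, 2 rose, 2 fell and 26 did not pass, with a median of -0.01. The share lower was 6.67%, where 3.88% of all tested genes fell and 2.65% rose. Dctn3, a dynactin subunit gene, rose by 0.38 and Bicdl1, an adaptor gene, by 0.47, while Rab11fip3, whose product links dynein to recycling endosomes, fell by 0.42 and Nin, the centrosomal ninein gene, by 0.36. The calls of Dctn3, Nin and Rab11fip3 were lost when wild-type replicate 2 or mutant replicate 1 or 3 was left out, that of Nin also without mutant replicate 2 and with the length and GC correction or the replicate block, and that of Bicdl1 with any 1 pool left out except wild-type replicate 1. Among 15 tested kinesin light chains, partners and kinesins with other names, 2 rose (Kifc5b, 0.55, and the mitochondrial adaptor Rhot1, 0.28) and none fell, where 2.65% of all tested genes rose. The call of Rhot1 was lost with any 1 pool left out except wild-type replicate 3, and that of Kifc5b without wild-type replicate 2 or mutant replicate 1 or 2. Kifc5b is a near copy of Kifc1, with which it can share reads. By DESeq2, by limma-voom, with library size alone and with the replicate block, the calls of Bicdl1 and Rhot1 were also lost. Those of Dctn3, Rab11fip3, Bicdl1 and Rhot1 were lost among the Y-positive pools.

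**Figure D3:**
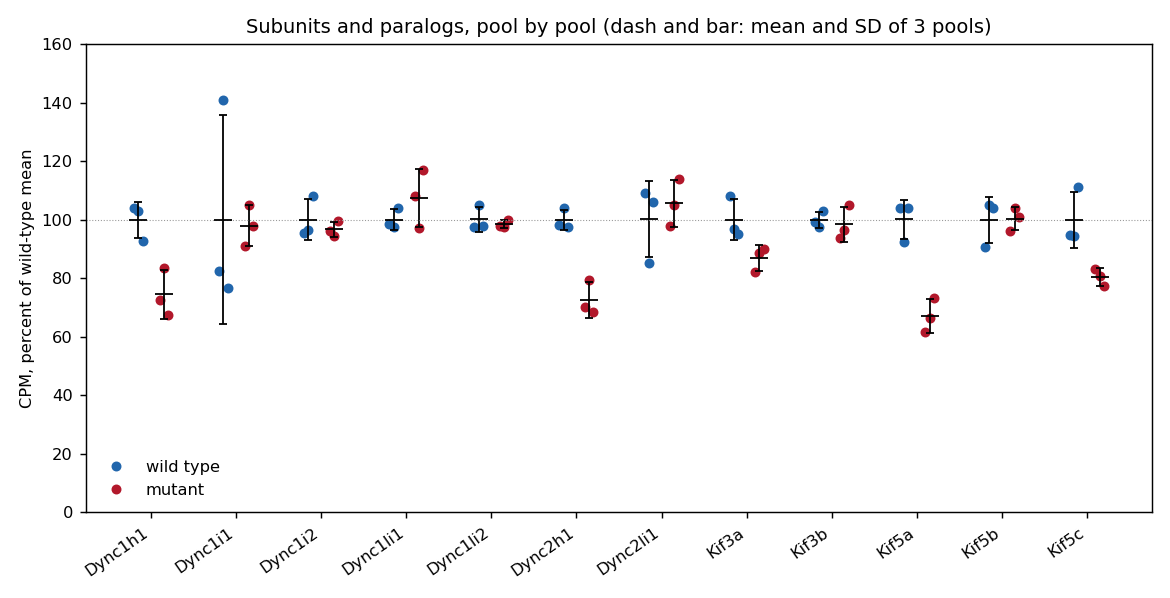
CPM of each pool as a percentage of the gene's wild-type mean (y axis, from 0) for the chains of dynein-1 and dynein-2, the kinesin-2 subunits Kif3a and Kif3b and the 3 kinesin-1 genes (x axis), with dashes and bars for the mean and SD of 3 pools. Dync1h1, Dync2h1, Kif5a and Kif5c lie lower in the mutant pools, as does Kif3a, which did not pass the test, while Kif3b, Kif5b and the other dynein chains overlap between genotypes.

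In the primary cilium, kinesin-2 carries cargo to the tip and dynein-2 brings it back, and hedgehog signalling depends on both. Of 9 ciliary kinesins and dynein-2 chains 1 fell (11.1%, against 3.88% of all tested genes), none rose and 8 did not pass. Their median was -0.21. Dync2h1, the dynein-2 heavy chain gene (ENSMUSG00000047193, chromosome 9, 6928503 to 7184446, minus strand), whose loss in people causes short-rib skeletal disorders, measured 127, 135 and 126 CPM in wild type and 90.4, 103 and 88.2 CPM in the mutants. The groups lay apart, by -0.46 (SE 0.078, edgeR adjusted p = 0.00257), and the call held in each alternative run. Dync2li1, its light intermediate chain, had 0.06 (SE 0.131, edgeR adjusted p = 0.834). There were 8.09, 11 and 8.22 Dync2h1 reads per Dync2li1 read in the wild-type pools and 6.40, 6.78 and 5.38 in the mutant pools, a ratio looked at after its parts were seen.

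The anterograde motor did not pass. Kif3a measured 33.2, 29.7 and 29.1 CPM in wild type and 25.1, 27.1 and 27.6 CPM in the mutants, which did not overlap (-0.21, SE 0.0996, edgeR adjusted p = 0.223). Kif3b had -0.03 (SE 0.0887). Kif24, which restrains cilium formation, measured 30.0, 37.2 and 32.6 against 24.1, 25.4 and 29.4 CPM (-0.34, SE 0.111, edgeR adjusted p = 0.0803), and Kif7, the kinesin of the hedgehog pathway and the most abundant of the class per kilobase (8.80 CPM per kb in wild type), had -0.09 (SE 0.0991). The lowly expressed Kif19a (-0.69, SE 0.384) and Kif27 (-0.38, SE 0.242) had wide errors. Among 26 genes of intraflagellar transport, the cargo trains these motors pull, Ttc30a1 rose (0.50) and Ift122, a subunit of the retrograde train, fell (-0.51), with a median of -0.09. The share lower, 3.85%, was close to the 3.88% of all tested genes. The call of Ift122 was lost without mutant replicate 1 or 2, and that of Ttc30a1 with any 1 pool left out except the replicates numbered 3. DESeq2 and limma-voom did not call Ttc30a1 either.

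Axonemal dynein transcripts were scarce. Of 15 Dnah genes in the files 5 met the count minimum, and their summed level was 23.4, 25.3 and 16.4 CPM in the wild-type pools and 13.7, 16.4 and 13.7 CPM in the mutant pools. Dnah1, an inner arm heavy chain gene (ENSMUSG00000019027, chromosome 14, 31260375 to 31323896, minus strand), measured 9.64, 11 and 6.55 CPM in wild type and 4.19, 4.31 and 4.6 CPM in the mutants. It had the largest change of the members in size, -1.04 (SE 0.208, edgeR adjusted p = 0.00799), or 48.7% of the wild-type level. The call was lost among the 4 Y-positive pools and held with any 1 pool left out, where the highest adjusted p was 0.0497. Dnah8 (-0.46, SE 0.265), Dnah5 (-0.50, SE 0.332), Dnah7b (-0.09, SE 0.281) and Dnah2 (-0.03, SE 0.325) did not pass; their standard errors were wider than those of most other members, and Dnah8 alone of them was called in any alternative run (without wild-type replicate 3, -0.74, edgeR adjusted p = 0.0461). Markers of motile ciliated cells summed to 2.71 to 4.63 CPM over all pools, with 1 read on Mcidas in all. Of 12 tested genes of axonemal dynein assembly and ciliary regulation Rfx2 fell (-0.82) and none rose, a share lower of 8.33% against 3.88% of all tested genes. The call of Rfx2 was lost with any 1 pool left out except mutant replicate 2, by DESeq2, by limma-voom and among the Y-positive pools.

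The myosins are given by class, and the difference between classes was not tested. None of 5 class I myosins, which link membrane to actin, passed, where 3.88% of all tested genes fell. Myo1a had the highest positive value of the members (0.51, SE 0.374), on 78 counts. Of 11 other unconventional myosins 3 fell (27.3%), none rose and 8 did not pass, with a median of -0.24. These 11 had a median of 9766 bases of exon and the class I genes 6465. Among all tested genes in the longest of 5 exon length classes, 10.4% fell. With the length and GC correction described further on, 2 of the 11 were lower, and without mutant replicate 1 none was.

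Myo10 encodes the motor that gathers at the tips of filopodia and is known to be needed for cranial neural crest migration in frog embryos. Myo10 (ENSMUSG00000022272, chromosome 15, 25622525 to 25813673, plus strand) measured 217, 209 and 216 CPM in wild type and 153, 174 and 157 CPM in the mutants. The wild-type pools were tightly grouped and well above the mutants, and the change was -0.41 (SE 0.0743, edgeR adjusted p = 0.00409). The call was lost without mutant replicate 1 (edgeR adjusted p = 0.0597). It was the most abundant of these myosins per kilobase (21.1 CPM per kb in wild type, 15.9 in the mutants).

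Myo5a carries melanosomes and other organelles along actin. Myo5a (ENSMUSG00000034593, chromosome 9, 75071015 to 75223688, plus strand) measured 137, 150 and 142 CPM against 108, 121 and 104 CPM, a change of -0.36 (SE 0.0773, edgeR adjusted p = 0.012). The call was lost when wild-type replicate 2 or mutant replicate 1 or 3 was left out. Its paralogs Myo5b (-0.16) and Myo5c (-0.24) did not pass. In Myo5b, as in Myo19 (-0.27) and Myo16 (-0.60, on 106 counts), all mutant pools lay below all wild-type pools. The same held for 14.4% of all tested genes. Myo18a, a myosin that joins nonmuscle myosin filaments and acts at the Golgi (ENSMUSG00000000631, chromosome 11, 77763246 to 77865980, plus strand), measured 57.2, 64.3 and 51.9 CPM against 42.5, 46.7 and 43.3 CPM. The change was -0.38 (SE 0.0949, edgeR adjusted p = 0.0257), lost when wild-type replicate 2 or any 1 mutant pool was left out, among the 4 Y-positive pools and with the length and GC correction (-0.13, edgeR adjusted p = 0.295), with or without the replicate block. Myo6, the myosin that walks toward the minus end, had 0.19 (SE 0.109, edgeR adjusted p = 0.31).

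In 12 tested genes of conventional nonmuscle myosin, 3 fell (25.0%) and none rose, where 3.88% of all tested genes fell. The list did not fall as a whole: its median was -0.04, with 6 genes below 0 and 6 above. These genes are long, with a median of 10685.5 bases of exon, and 13.7% of all tested genes of 10 kb or more fell. Mylk, the myosin light chain kinase gene, fell by 0.66 (SE 0.0878, edgeR adjusted p = 0.000332), the heavy chain gene Myh10 by 0.34 and the kinase gene Rock2 by 0.28. The call of Myh10 was lost without mutant replicate 1 or 3 and that of Rock2 with any 1 pool left out except wild-type replicate 1. Of 14 tested tubulin genes, which encode the tracks of kinesin and dynein, Tubb6 rose (0.32) and Tube1 fell (-0.54). The share lower was 7.14%, against 3.88% of all tested genes. The call of Tubb6 was lost when wild-type replicate 2 or any 1 mutant pool was left out, and that of Tube1 among the 4 Y-positive pools alone. By limma-voom the calls of Rock2 and Tubb6 were also lost. Of all the calls among partner genes, those of Cit, Mki67 and Mylk held in each alternative run.

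Set side by side, the mitotic, transport and ciliary motors had 3 of 11, 2 of 10 and 1 of 9 members lower, medians of -0.13, -0.12 and -0.21, and no member higher, where 3.88% of all tested genes, 4.29% in the second longest of 5 exon length classes and 10.4% in the longest were lower. The ciliary share of 1 of 9 (11.1%) rests on Dync2h1 alone, which at 16348 bases is in the longest class. The median exon length was 5215 bases over the ciliary members, 6957 over the mitotic and 8037.5 over the transport members. The share of the longest class is thus no like comparison for the ciliary class as a whole. Summed CPM of the mitotic class was 1590 ± 53.6 in wild type and 1440 ± 45.7 in the mutants, that of the transport class 910 ± 16.9 and 833 ± 31.2, and that of the ciliary class 298 ± 5.33 and 247 ± 8.34 (SD, n = 3 pools each). Each of these sums includes members already called lower in the same pools. In the ciliary sum, Dync2h1 had a mean of 129 CPM in wild type and 93.7 CPM in the mutants. The ciliary median of -0.21 includes Kif19a and Kif27, with 122 and 207 summed counts and standard errors of 0.384 and 0.242. The differences between classes were not tested. The counts rest on few genes: without mutant replicate 1 they were 1, 0 and 1, without mutant replicate 2 also 1, 0 and 1, and among the 4 Y-positive pools 3, 0 and 2.

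The genes that fell tended to have more exon sequence, with exceptions in both directions. The 12 had a median of 11602 bases of annotated exon and the 50 that did not pass 7194.5, against 4354.5 over all tested genes; in exons of the transcript with the most of them, the medians were 38.5 and 24. Kif5a (6990 bases) and Kif5c (7142) fell at lengths below the median of those that did not pass, and Kif1b (17608), Myo9a (13034), Kif13b (13017) and Myo6 (12078) did not pass. Split into 5 equal-sized classes of exon length over all tested genes, the longest (7594 bases or more) held 31 members, of which 10 fell (32.3%), where 10.4% of all genes in it fell. The next class (5196 to 7592 bases) held 19 members with 2 falls, against 4.29% of its genes, and the 3 shorter classes held 12 members with none. Members in the longest class had a median log2 fold change of -0.24, against -0.10 for all genes there. Across the 62 genes, which are not independent replicates and share the same libraries, fold change and log2 exon length had a Pearson r of -0.41 (Spearman rho -0.42), given as a description. Over all tested genes with a length the Spearman rho was -0.21.

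A correction that removes each pool's trend over exon length and GC content left 11 members lower and none higher, against 4.1% and 4.89% of all tested genes. Of the 12, Dync1h1 (-0.21, edgeR adjusted p = 0.0553) and Myo18a (-0.13, edgeR adjusted p = 0.295) no longer passed, and Kif2a (-0.27, edgeR adjusted p = 0.0167) did, a gene with 19.2% of its exonic bases under an opposite-strand gene. Kif15 (-0.43), Kif21b (-0.41), Dync2h1 (-0.32) and Dnah1 (-0.86) kept a call, each at a smaller size. The members' median became -0.08. By class the corrected medians were -0.11 (mitotic), -0.01 (transport) and -0.24 (ciliary), against -0.13, -0.12 and -0.21 before, and 3, 2 and 1 members were lower, as before. The heavy chain genes that stood apart from their partner chains are also the longest of the genes set beside them, at 15658 bases for Dync1h1 and 16348 for Dync2h1, against 1869 for Dync2li1 and 3572 to 8280 for the other dynein-1 genes; there length and subunit cannot be told apart. The 3 kinesin-1 genes are of similar length, with Kif5b at 7981 bases. None of the 12 shares over 10% of its exonic bases with another gene, whereas 6 of the 62 members do (Kif3c, Kif20a, Kif7, Kif2a, Kif4 and Kif1bp), each with a gene on the opposite strand.

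**Figure D4:**
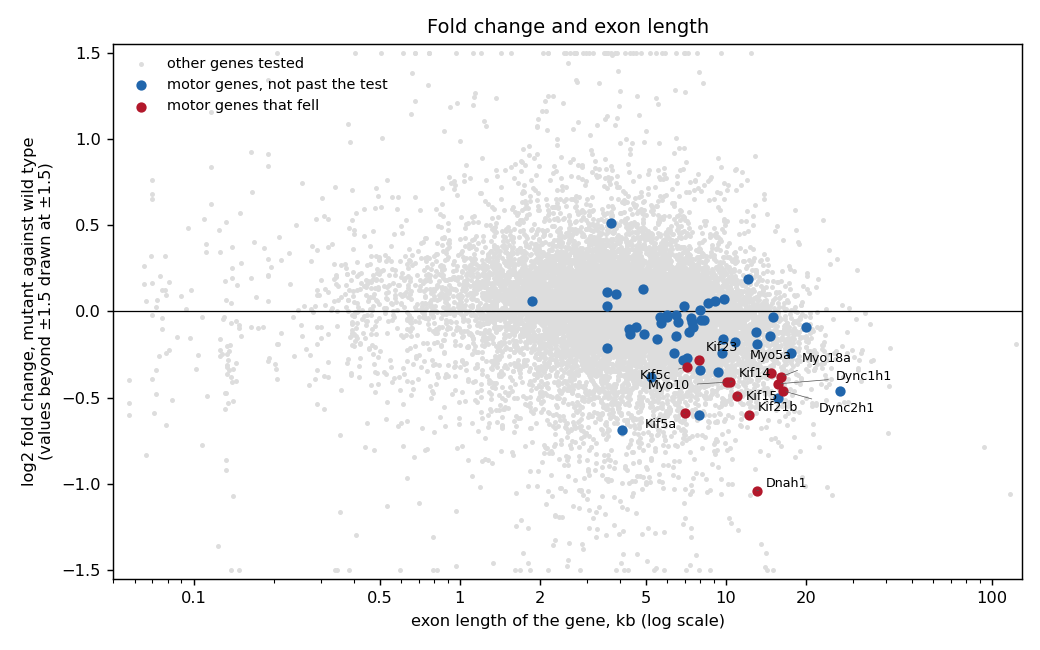
Log2 fold change (y axis, mutant against wild type) against exon length in kb (x axis, log scale) for 62 motor genes in color and the other tested genes in grey, each point a gene. Of the 31 motor genes in the longest of 5 length classes (7594 bases or more) 10 fell, while none of the 12 in the 3 shortest did.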

How the data were processed

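The deposited files hold raw counts of reads per Ensembl gene, 1 file per pool, which the authors did not normalize. Counts refer to mm10 (GRCm38), according to the submitters' processing notes, while aligner, counter, annotation and strand use were not given in the sources used here. Libraries were made from total RNA with an Illumina TruSeq kit, per the labels' protocols. Of 54532 IDs, 54495 matched GENCODE M21, which gave symbols, positions and exon lengths (all exons of a gene merged). Groups came from the titles. Genes were kept with filterByExpr (14008), scaled by TMM and tested with edgeR's quasi-likelihood test (robust, two-sided, Benjamini-Hochberg over all genes, threshold 0.05); a standard error is the fold change over the square root of F. The labels do not say that pools came from separate litters, so p-values measure the spread between these pools. Within a genotype, pools differed by more than counting noise (chi-square over its degrees of freedom, 3.01 to 10.2).

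Tested on simulated counts with the real means and dispersions, the fit (13816 genes) recovered 69.2% at a true change of 1.5-fold, 83.3% at 2-fold and 95.4% at 4-fold, with 17 false calls among 179. Changes below 1.5-fold, the size of most members' changes, were not simulated, so their recovery is not known. The members, classes and lists were chosen with earlier results of these data known. Members named are those past the threshold, in each class the most abundant per kilobase and, where fewer than 2 passed, the 2 with the smallest p, those beside the count minimum and 7 well-known ones; others are examples chosen after their values were seen. Kifbp, Dnaaf4 and Myl12b matched no single ID. One member that the rule names is not reported here. Promoters are RefSeq's. Alternatives are given in the closing section. The fits used edgeR 4.0.16, DESeq2 1.42.0 and limma 3.58.1 under R 4.3.3, and figures and summaries matplotlib 3.10.9 under Python 3.11.15.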

Additional observations from a re-analysis of the deposited data

How the results depend on the processing

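In every alternative run no motor gene was higher, and the number lower ran from 4 to 17. With each pool left out it ran from 4 to 16, the members' median from -0.17 to -0.10 and the number of all genes called from 230 to 1810, against 12, -0.14 and 914. At an adjusted p under 0.01, 6 members and 265 genes in all were called, and under 0.1, 1550 genes. In the 4 pools with Y-linked reads the median was -0.12 and 535 genes were called; with Y-linked reads as a covariate, 17 members were lower and 1644 genes called. The median was -0.16 with library size alone and -0.08 with the correction for length and GC content. Requiring 1 CPM in 3 pools kept the same number of genes, 14008, and made the same number of calls. At these library sizes it asks for the same counts as the main filter, so the match does not test the filter. With no filter on low counts 14 members were lower. Same-numbered pools had correlations of deviations from the group mean of -0.161 to 0.0515, and differently numbered pools of -0.208 to 0.274. Deviations from a mean of 3 pools are tied to each other, so this check cannot decide whether the replicate numbers pair the pools. With the replicate number as a block 10 members were lower, Kif23 and Kif5c no longer passing. With the block and the correction together, 12 were lower, the median was -0.08 and 1440 genes were called. The causes of these shifts were not tested. Detection was not tested by expression level.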
